A study of Mus musculus with 15 samples.

Results

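Leukocyte markers were read out as 37 genes, each known to mark a class of immune cell, in the skeletal muscle and heart of dystrophic mice given a senolytic treatment or vehicle. The members were taken by name from the table of 56980 genes, and all 37 had a row. They comprised 1 marker of all leukocytes (Ptprc), 10 general macrophage and monocyte markers, 5 markers of resident or scavenging macrophages, 3 of macrophages found in damaged tissue, 4 of T cells, 3 of B cells, 2 of natural killer (NK) cells, 3 of neutrophils, 3 of mast cells and 3 of dendritic cells.

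RNA was sequenced in bulk from the tibialis anterior (TA, a muscle of the lower leg) or the heart of DBA/2-mdx mice, 1 mouse per library and 15 libraries in all. Every mouse, vehicle-treated mice included, carried the mdx defect of dystrophin on the DBA/2J strain, and no wild-type mouse was analysed here. The TA groups were 4 males given dasatinib plus quercetin (D+Q) and 2 males (replicates 1 and 3) with 2 females given vehicle, treated from 3 to 5 months of age for 2 months. The heart groups were 3 mice given D+Q (replicates 1 and 2 labelled female, replicate 3 labelled male) and 2 males (replicates 1 and 4) with 2 females given vehicle, treated from 12 to 16 months of age for 4 months. Both agents were given 2 times a week.

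Macrophages clear necrotic fibers in dystrophic muscle, and their gene programme differs between cells that were seeded early and renew in the tissue and cells that descend from blood monocytes. Resident cells are known by receptors for debris and folate such as Mrc1, Cd163, Lyve1, Folr2 and Timd4, whereas lipid-laden macrophages in injured tissue switch on Trem2, Lgals3 and Gpnmb. Mast cells store proteases in granules, lymphocytes carry the antigen receptors, and neutrophils are short-lived cells that arrive from blood. In bulk RNA, fewer cells of a type and less RNA per cell cannot be told apart, so every level below is RNA of a marker per total RNA of the tissue.

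Values are TPM (transcript abundance scaled to a fixed total per library), which are corrected for gene length, so that levels can be compared between genes. The library labelled male among the D+Q hearts held 47.2 TPM of Xist, the RNA of the inactive X chromosome, and 0.0159 TPM of the Y-linked Ddx3y, which goes against its label, and the treatment results in heart and the counts between D+Q tissues are also given without it. Libraries held their labelled tissue: summed TPM of 6 skeletal muscle genes was 40359 to 51606 in TA and 1330 to 1783 in heart. Between 21830 and 25378 genes were above 0 in each library, and TPM keeps no record of sequencing depth, which is therefore unknown here.

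Macrophage genes held most of the summed TPM of the 37 members in both tissues. The 18 macrophage markers held 89% to 96% of that sum in the TA libraries and 84.2% to 90.5% in the hearts. This share depends on which genes are on the list and on the high level of Lyz2, and it is not a share of cells. In TA the order of mean levels began with Lyz2, Gpnmb, Lgals3, Cd68, Fcer1g, Tyrobp, Csf1r and Fcgr3, and in heart with Lyz2, Csf1r, Fcer1g, Tyrobp, Mrc1, Cd68 and Folr2. At the other end, 8 members stayed under 1 TPM in all 15 libraries, namely the T cell genes Cd3d, Cd4 and Cd8a, the B cell gene Ms4a1, the NK genes Nkg7 and Klrb1c, and the dendritic cell genes Flt3 and Siglech. A further 4 members, Timd4, Cd3e, Cd79a and Cd79b, were under 1 TPM in every TA library but not in every heart. The heat map of members by mouse shows this division, with 21 members at 1 TPM or more in every library.

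**Figure D1:**
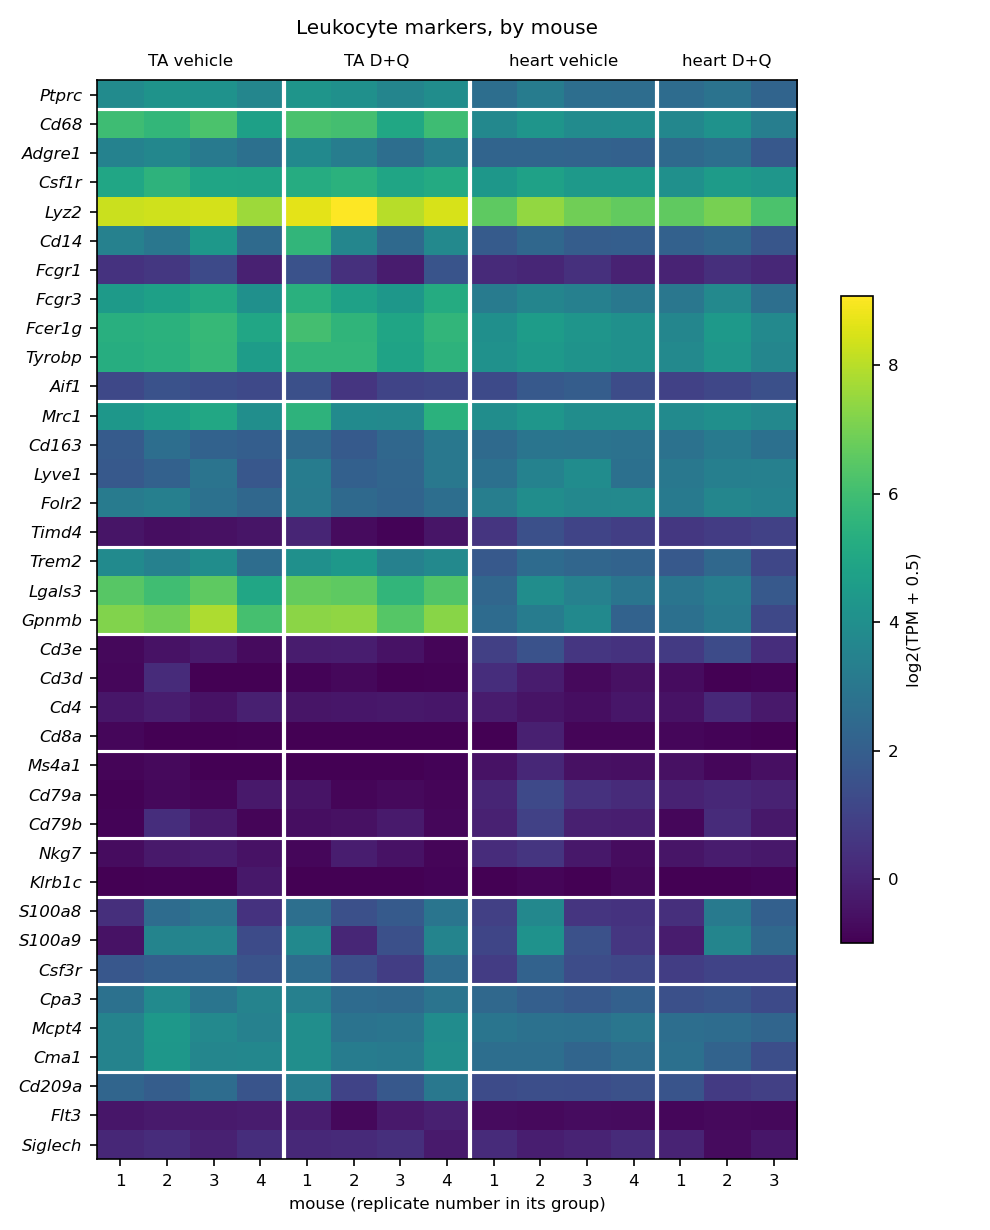
Heat map of log2(TPM + 0.5) for the 37 members (rows, by class) in the 15 libraries (columns, by tissue and treatment), with colour from low to high level. Macrophage rows are the brightest in both tissues, and the T, B and NK rows are near the lowest level of the scale. The 8 members that stayed under 1 TPM in all libraries include the dendritic cell genes Flt3 and Siglech.

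No member passed the test for a D+Q effect in either tissue. This fit of TPM called no gene at all in TA and few in heart. The study, which fitted counts, reported many genes changed by D+Q in both tissues at the same adjusted p and minimum fold. The lack of called members therefore does not show that D+Q had no effect on them. Differences were tested with limma on log2(TPM + 0.5) over all genes that reached 0.5 TPM in at least 3 mice of the comparison, and a gene was called at a Benjamini-Hochberg adjusted p below 0.05 with an absolute log2 fold change above 0.5. In TA, 26 of the 37 members were tested and 0 were called, where 0% of the 16298 genes tested were called higher and 0% lower, and all 26 had an adjusted p of 0.999. The 11 members too low to test were Timd4, Flt3 and all T, B and NK genes. At an unadjusted p below 0.05 with the same minimum fold, 0 of the 26 passed either way, against 0.491% of all genes higher and 1.72% lower in D+Q-treated TA. No member had D+Q and vehicle TA values that did not overlap, against 0.264% of genes with all D+Q values above and 1.25% with all below. The log2 fold change was above 0 for 11 and below 0 for 15 of the 26 members (33.6% and 66.4% of all genes), with a median of -0.06 beside -0.07 over all genes.

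In heart, 28 members were tested and 0 were called, against 0.105% of 16132 genes called higher and 0.211% called lower. The 9 untested were 3 T cell, 2 B cell, 2 NK and 2 dendritic cell genes. At the unadjusted p, 0 members passed above vehicle and 4 below it, where 1.3% of all genes passed above and 3.79% below. Those 4 were Trem2, Lgals3, Gpnmb and the mast cell gene Cpa3. The fold change was above 0 for 3 and below 0 for 25 of the 28 members, where 49.5% of all genes were above and 50.5% below. The members' median log2 fold change was -0.29, beside -0.00248 over all genes. With 1 mouse left out, this median ranged from -0.42 (without vehicle heart replicate 3) to -0.19 (without D+Q heart replicate 1). Without D+Q heart replicate 3 it was -0.32, with 4 members above 0 and 24 below. Without vehicle heart replicate 2 and without the covariate it was -0.12. Values of both groups did not overlap for 2 members, both mast cell genes lower in D+Q (Cpa3 and Mcpt4), against 5.57% of all genes lower and 9.63% higher.

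The called differences among the members all lay between TA and heart. Among vehicle-treated mice, 14 of 30 tested members were called higher in TA and 6 higher in heart (7 of the 37 were too low to test), where 22.6% of 17868 genes were called higher and 14.1% lower in TA. Among D+Q-treated mice, 16 of 30 were called higher and 4 lower in TA, against 21.4% and 15.9% of all genes. Timd4, Cd3e and Cd79a, called lower in TA in both pairs of groups, passed the filter only through the hearts. Values of the tissues did not overlap for 16 members higher and 3 lower in TA under vehicle (25.9% and 15% of all genes), and for 15 higher and 3 lower under D+Q (26.8% and 19.9%). The fold change was above 0 for 22 and below 0 for 8 members in each pair of groups, where 61.5% and 38.5% of all genes were so under vehicle and 56.2% and 43.8% under D+Q. The median over members was 0.62 beside 0.16 for all genes under vehicle, and 0.90 beside 0.09 under D+Q. The TA mice were also younger and treated for a shorter time, so tissue, age and length of treatment cannot be told apart in these contrasts. Under D+Q sex cannot be told apart from tissue either: all 4 TA mice were male, and all 3 hearts held Xist at 47.2 to 59.5 TPM and under 1 TPM of each of 4 Y-linked genes. Without D+Q heart replicate 3, the members called under D+Q were 12 higher and 2 lower in TA. Over all genes 3252 were then called higher and 2743 lower, against 3824 and 2847 with that library. The 6 members that lost their call were Adgre1, Cd14, Cd209a, Cd79a, Folr2 and Mcpt4 (limma Benjamini-Hochberg adjusted p from 0.0509 to 0.103). Median-of-ratios scaling moved the median of all genes under vehicle from 0.16 to -0.00357 and that of the members from 0.62 to 0.45. Over all genes the calls under vehicle were then 2910 higher and 3313 lower in TA, against 4038 and 2518 as deposited, whereas 13 members were called higher and 6 lower.

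**Figure D2:**
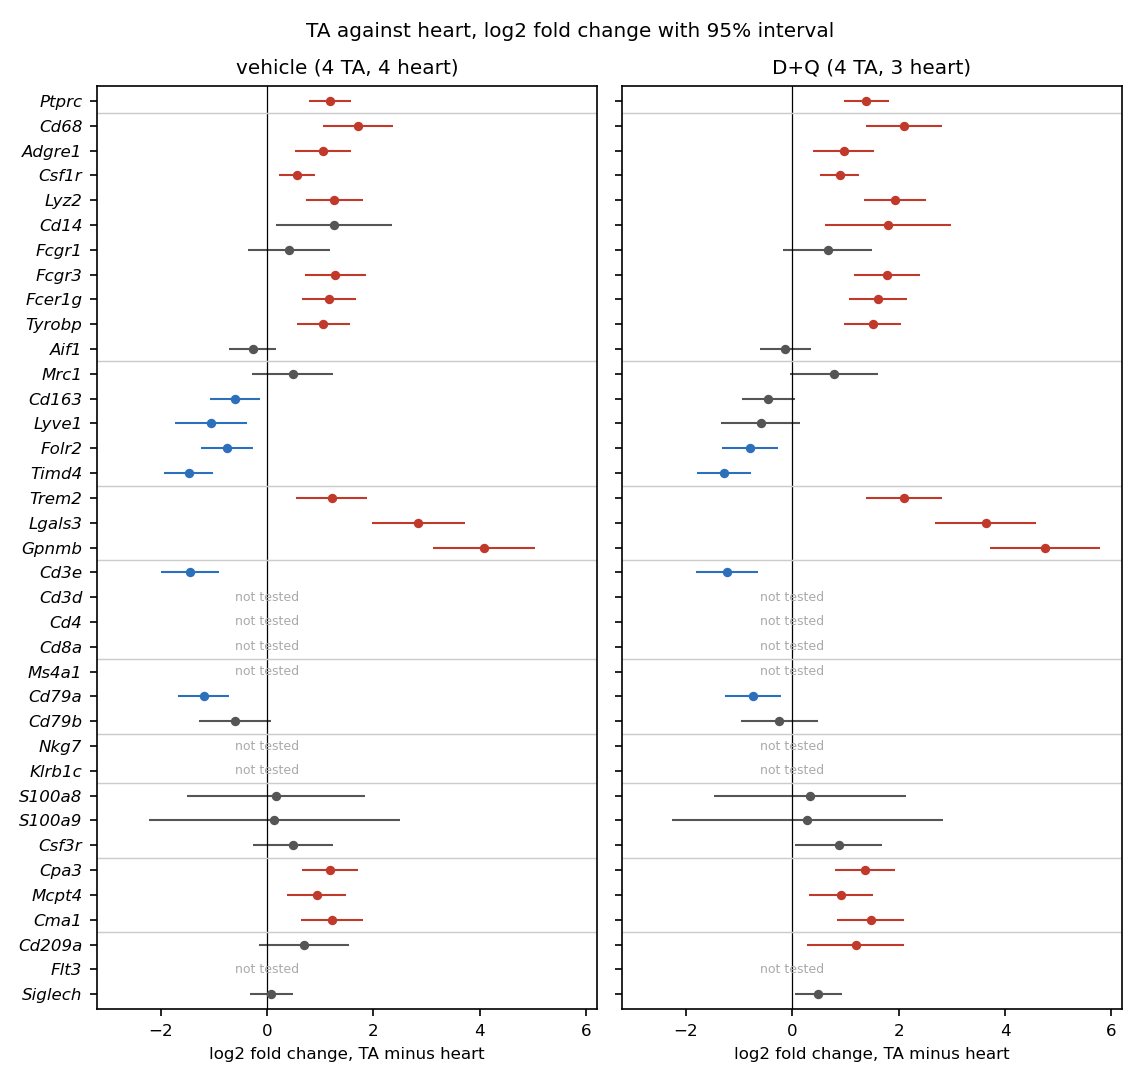
Log2 fold change of TA over heart with its 95% interval (horizontal axis) for each tested member (vertical axis, by class), with vehicle-treated and D+Q-treated mice in separate panels and members called higher in red, called lower in blue and not called in grey. The damage-associated markers lie farthest to the right, with Gpnmb at 4.08 and 4.76, while Timd4 lies at -1.48 and -1.29.

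The marker of all leukocytes was higher in TA. Ptprc (CD45, the phosphatase carried by nucleated blood-derived cells, chr1:137990599-138103446, GRCm39) measured 18.4, 16.0, 11.4 and 14.9 TPM in D+Q TA replicates 1 to 4. In vehicle TA it measured 14.1, 17.6, 17.0 and 11.9 TPM, in vehicle hearts 5.74, 8.79, 5.80 and 5.52 TPM and in D+Q hearts 5.46, 6.62 and 4.31 TPM. Every TA library was above every heart library, and within each tissue the treatment groups overlapped. The log2 difference of vehicle TA over vehicle heart was 1.18 (SE 0.19), with a limma Benjamini-Hochberg adjusted p of 9.19e-05. For D+Q against vehicle, the log2 fold change of Ptprc was -0.10 (SE 0.15) in TA and -0.28 (SE 0.15) in heart.

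Of the 10 general macrophage markers, 7 were called higher in vehicle TA than in vehicle heart and 8 under D+Q (22.6% and 21.4% of all genes). Lyz2 (lysozyme, an enzyme that digests bacterial walls, chr10:117111557-117118346) had the highest level of all members. It measured 403, 538, 257 and 355 TPM in D+Q TA and 311, 326, 342 and 192 TPM in vehicle TA. In hearts it measured 94.5, 173, 119 and 101 TPM with vehicle and 96.4, 129.7 and 74.4 TPM with D+Q. All TA values lay above all heart values, and D+Q TA replicate 2 had the highest and vehicle TA replicate 4 the lowest TA level. The log2 difference between vehicle TA and vehicle heart was 1.27 (SE 0.25), with an adjusted p of 0.000762 (limma, Benjamini-Hochberg).

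Cd68, a lysosomal membrane protein, was 52.5 ± 20.4 TPM in vehicle TA and 14.9 ± 2.72 TPM in vehicle heart (mean ± SD, n = 4 each), a log2 difference of 1.70. Adgre1 (F4/80) differed by 1.04, and the Fc receptor Fcgr3 by 1.29. The adaptors that pass on signals from such receptors, Fcer1g and Tyrobp, differed by 1.16 and 1.06. These 5 were called higher in TA. The receptor for macrophage growth factor, Csf1r, had the smallest called difference of the 7, at 0.56 (SE 0.16) on the log2 scale and an adjusted p of 0.00945 by limma with Benjamini-Hochberg adjustment. Cd14, the co-receptor for endotoxin, had values that did not overlap under vehicle but missed the call (log2 difference 1.26, adjusted p 0.0596), and it was called under D+Q at 1.79 (adjusted p 0.0165, both limma with Benjamini-Hochberg). Fcgr1, the high-affinity Fc receptor, was at 0.41, and Aif1, a cytoskeletal protein of macrophages, at -0.27. Neither of those last members was called in either pair of groups.

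Of the 5 resident and scavenging macrophage markers, 4 were lower and 1, Mrc1, was higher in TA in both pairs of groups. The 4 were called under vehicle, and 2 of these, Folr2 and Timd4, were also called under D+Q (14.1% and 15.9% of all genes). The call of Timd4 depends on the filter, which leaves Cd163, Lyve1 and Folr2 under vehicle and Folr2 alone under D+Q. Values of the tissues did not overlap for 1 of the 5 (lower in TA), against 15% of all genes under vehicle and 19.9% under D+Q. Timd4, a receptor for the lipid that dying cells expose, was 0.149 to 0.2497 TPM in vehicle TA and 0.0324 to 0.544 TPM in D+Q TA, so that all 8 muscles were under 1 TPM. In hearts Timd4 ranged from 0.961 to 2.24 TPM with vehicle and from 1.03 to 1.44 TPM with D+Q, without overlap with TA. Too few TA libraries reached 0.5 TPM for the filter, so Timd4 was tested only through the hearts. Its log2 difference was -1.48 (SE 0.22) under vehicle and -1.29 (SE 0.24) under D+Q, with limma Benjamini-Hochberg adjusted p of 5.19e-05 and 0.000405.

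Folr2, a folate receptor, was 7.29 ± 2.28 TPM in vehicle TA and 12.3 ± 2.14 TPM in vehicle heart, and its log2 differences were -0.75 under vehicle and -0.79 under D+Q. Lyve1, a hyaluronan receptor that lymphatic vessels also carry, was 4.17 ± 1.85 and 9.29 ± 4.01 TPM in the same groups, a log2 difference of -1.05 that was called. Under D+Q the Lyve1 difference was -0.60 and was not called. Cd163, which takes up haemoglobin bound to haptoglobin, differed by -0.60 under vehicle and was called with an adjusted p of 0.0349 (limma, Benjamini-Hochberg), and by -0.45, not called, under D+Q. With only libraries labelled male (2 against 2 under vehicle), the calls of Cd163, Lyve1 and Folr2 were lost at log2 differences of -0.61, -0.37 and -0.55, with adjusted p of 0.18 to 0.577 over the 5 members that lost their call there (limma, Benjamini-Hochberg). The Cd163 call was also lost when any of 6 single libraries was left out.

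Mrc1, the mannose receptor, had the highest level of the resident class and was not called between tissues. It measured 45.0, 13.7, 12.9 and 43.1 TPM in D+Q TA and 19.7, 24.4, 32.6 and 15.4 TPM in vehicle TA (chr2:14234151-14336926). In hearts it measured 14.6, 19.2, 14.7 and 14.9 TPM with vehicle and 13.8, 15.6 and 12.6 TPM with D+Q. D+Q TA replicates 1 and 4 were the highest of all 15 libraries and D+Q TA replicates 2 and 3 lay among the lowest, so that group alone spread over most of the range of all libraries. The log2 difference of vehicle TA over vehicle heart was 0.48 (SE 0.36), with an adjusted p of 0.296 (limma, Benjamini-Hochberg).

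The 3 damage-associated markers had the greatest median tissue difference of the classes, 2.85 on the log2 scale under vehicle and 3.64 under D+Q. Gpnmb, a glycoprotein of lysosome-rich macrophages whose gene carries a premature stop codon in the DBA/2J strain (chr6:49013426-49047863), measured 162, 168, 84.7 and 155 TPM in D+Q TA and 142, 120.1, 228 and 67.9 TPM in vehicle TA. In vehicle hearts it measured 5.20, 8.81, 13.1 and 4.01 TPM, and in D+Q hearts 6.11, 8.29 and 1.79 TPM. The lowest TA library was above the highest heart, and D+Q TA replicate 3 and vehicle TA replicate 4 were the low libraries of their groups. The log2 difference of vehicle TA over vehicle heart was 4.08 (SE 0.45), with a 95% interval of 3.13 to 5.04 and a limma Benjamini-Hochberg adjusted p of 2.28e-06, the largest of all 30 members tested. Under D+Q it was 4.76 (SE 0.48), adjusted p 1.08e-06 by the same limma fit.

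Lgals3, a secreted lectin that binds galactosides on damaged vesicles (chr14:47605208-47623624), measured 104, 95.4, 48.4 and 79.7 TPM in D+Q TA and 87.4, 63.2, 93.5 and 30.4 TPM in vehicle TA. Values in vehicle hearts were 4.51, 14.6, 10.1 and 7.05 TPM and in D+Q hearts 6.99, 9.20 and 3.04 TPM. Again no heart reached the lowest TA library, which was vehicle TA replicate 4. Its log2 difference was 2.85 (SE 0.41) under vehicle and 3.64 (SE 0.44) under D+Q, with adjusted p of 4e-05 and 7.87e-06 (limma, Benjamini-Hochberg).

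Trem2, a lipid-sensing receptor that signals through Tyrobp (chr17:48653429-48661175), measured 16.1, 20.1, 10.2 and 12.9 TPM in D+Q TA and 13.5, 10.1, 14.9 and 5.55 TPM in vehicle TA. In hearts given vehicle it was 3.04, 5.21, 4.56 and 4.18 TPM and in D+Q hearts 3.03, 4.81 and 1.72 TPM. The tissues stood apart by a narrow margin, with vehicle TA replicate 4 just above vehicle heart replicate 2. The log2 difference was 1.21 (SE 0.31) under vehicle and 2.10 (SE 0.33) under D+Q, and both were called.

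Set against Csf1r in the same library, Gpnmb and Lgals3 stayed above and Folr2 and Timd4 below the hearts in TA. The ratio of Gpnmb to Csf1r was 2.37 to 7.62 in vehicle TA, 2.85 to 4.40 in D+Q TA, 0.187 to 0.606 in vehicle heart and 0.0950 to 0.376 in D+Q heart. The ratio of Lgals3 to Csf1r was 1.06 to 3.13 over all 8 TA libraries and 0.161 to 0.547 over all 7 hearts. The ratio of Folr2 to Csf1r was 0.115 to 0.286 in TA and 0.483 to 0.592 in heart. For Timd4 it was at most 0.0148 in TA and at least 0.0489 in heart. In the plot of these ratios TA and heart are separate for each of the 4 genes. The ratio of Lyz2, a general marker, was also higher in TA without overlap (6.71 to 12.7 against 3.95 to 6.47). Those of Cd163 (at most 0.214 in TA, at least 0.261 in heart) and Lyve1 (0.241 and 0.283) were lower without overlap. A ratio above the hearts was therefore not particular to the damage-associated genes. The ratios of Mrc1 and of Trem2 to Csf1r overlapped between tissues. For Trem2 the ratio was 0.194 to 0.498 in TA and 0.0913 to 0.214 in heart. A gene's ratio to Csf1r can differ through either gene, and other cell types also express some of these genes, for instance Lgals3 in fibroblasts.

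**Figure D3:**
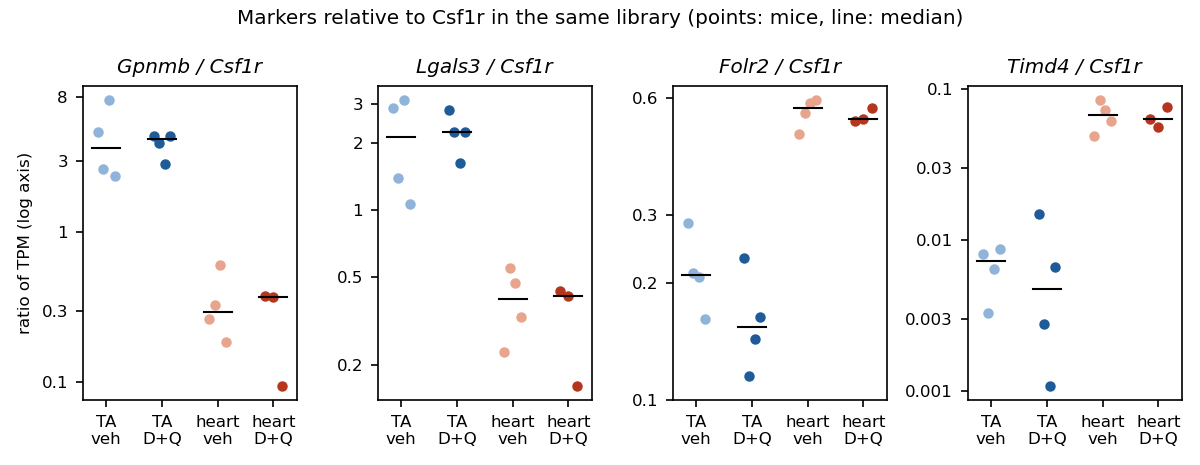
Ratio of the TPM of Gpnmb, Lgals3, Folr2 and Timd4 to the TPM of Csf1r (vertical log axis, 1 panel a gene), with 1 point per mouse by group. TA libraries lie above all hearts for Gpnmb and Lgals3 (1.06 or more against 0.547 or less for Lgals3) and below all hearts for Folr2 and Timd4.

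Lymphocyte markers were scarce, and 2 of the 3 tested, Cd3e and Cd79a, were called higher in heart (14.1% of all genes under vehicle and 15.9% under D+Q). Both stayed under 0.5 TPM in every TA library and passed the filter only through the hearts. The count of 2 among the 3 tested therefore depends on the filter and gives no result for the class. Cd3e, a chain of the T cell receptor complex, measured 0.352, 0.377, 0.1997 and 0.0570 TPM in D+Q TA and 0.0773, 0.207, 0.328 and 0.117 TPM in vehicle TA. In vehicle hearts it measured 1.39, 2.38, 1.01 and 0.908 TPM and in D+Q hearts 1.16, 1.96 and 0.745 TPM. No TA library reached the lowest heart, and the treatment groups overlapped in both tissues. The log2 difference of TA over heart was -1.45 (SE 0.26) under vehicle (adjusted p 0.000274) and -1.23 (SE 0.28) under D+Q (adjusted p 0.00215, limma with Benjamini-Hochberg). The other T cell genes were too low to test: Cd4, the co-receptor of helper cells, was 0.153 to 0.340 TPM in vehicle hearts and 0.2004 to 0.432 TPM in vehicle TA. The co-receptor of cytotoxic cells, Cd8a, was listed at 0 in all 4 D+Q TA libraries, and its highest value was 0.413 TPM, in vehicle heart replicate 2.

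Cd79a, a signalling chain of the B cell receptor, measured 0.214, 0.0468, 0.102 and 0.0573 TPM in D+Q TA and 0.0259, 0.0880, 0.0464 and 0.2999 TPM in vehicle TA. Vehicle hearts had 0.519, 1.81, 0.842 and 0.667 TPM and D+Q hearts 0.463, 0.588 and 0.472 TPM. Every heart was above every TA library, and vehicle heart replicate 2 was the highest. The log2 difference was -1.19 (SE 0.23) under vehicle (adjusted p 0.000525) and -0.74 (SE 0.25) under D+Q (adjusted p 0.0237, limma with Benjamini-Hochberg). Its partner Cd79b was at -0.60 and -0.24 and was not called, and Ms4a1 (CD20) was 0.173 to 0.590 TPM in vehicle hearts and at most 0.0899 TPM in TA.

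Nkg7, a granule membrane protein of NK and cytotoxic T cells, measured 0.0618, 0.364, 0.194 and 0.0529 TPM in D+Q TA and 0.135, 0.304, 0.358 and 0.208 TPM in vehicle TA. Values in vehicle hearts were 0.704, 0.979, 0.286 and 0.138 TPM and in D+Q hearts 0.238, 0.362 and 0.279 TPM. All 4 groups overlapped at these low levels, and neither Nkg7 nor the NK receptor gene Klrb1c passed the filter in any comparison.

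The neutrophil genes S100a8 and S100a9 varied more between mice of a group than the group means did. S100a9, a subunit of the calcium-binding protein calprotectin, measured 13.2, 0.564, 2.23 and 11.1 TPM in D+Q TA and 0.209, 11.1, 11.6 and 1.93 TPM in vehicle TA. In vehicle hearts it measured 1.67, 17.3, 2.34 and 1.01 TPM and in D+Q hearts 0.359, 11.4 and 4.85 TPM. Each group held libraries above 10 TPM, namely D+Q TA replicates 1 and 4, vehicle TA replicates 2 and 3, vehicle heart replicate 2 and D+Q heart replicate 2, beside libraries under 3 TPM. For D+Q against vehicle the log2 fold change was -0.32 (SE 0.83) in TA, with a 95% interval of -2.17 to 1.52, so that this design could not resolve even a several-fold difference. The partner subunit S100a8 was at 0.35 in TA and 0.34 in heart, and Csf3r, the receptor for granulocyte growth factor, at -0.27 and -0.47. None of the 3 was called between tissues under vehicle or under D+Q.

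All 3 mast cell genes were called higher in TA than in heart under both treatments (22.6% and 21.4% of all genes). Mcpt4, a granule chymase (chr14:56297086-56299770), measured 15.1, 6.55, 7.04 and 14.6 TPM in D+Q TA and 10.9, 20.3, 12.7 and 10.4 TPM in vehicle TA. Hearts of vehicle-treated mice had 6.96, 6.30, 6.04 and 7.28 TPM and D+Q hearts 5.70, 5.43 and 4.31 TPM. D+Q TA replicates 2 and 3 lay within the range of the vehicle hearts, whereas replicates 1 and 4 lay within the vehicle TA range. Cpa3, a granule carboxypeptidase (chr3:20269774-20296362), measured 10.1, 5.23, 4.97 and 6.89 TPM in D+Q TA and 6.35, 13.8, 6.96 and 11 TPM in vehicle TA. Vehicle hearts had 4.74, 3.65, 2.99 and 3.73 TPM and D+Q hearts 2.28, 2.53 and 1.90 TPM. In heart all 3 D+Q values were below all 4 vehicle values for both genes, and 5.57% of all genes were so. The log2 difference of vehicle TA over vehicle heart was 1.18 (SE 0.25) for Cpa3, 0.93 (SE 0.26) for Mcpt4 and 1.22 (SE 0.27) for the chymase Cma1, all called. With only libraries labelled male, the calls of Cpa3 and Mcpt4 were lost, at log2 differences of 0.60 and 0.69.

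The promoters of these 3 genes are shown because, among the tested members, only Cpa3 and Mcpt4 had D+Q and vehicle values that did not overlap. These were 2 of 28 members tested in heart, where 5.57% of all genes were lower without overlap. Cma1 overlapped, and 0 of 4 further mast cell genes tested in heart were without overlap. Sequences are the 250 bases before the transcript start in RefSeq (GRCm38.p6), on the minus strand for all 3, at chr3:20242182-20242431 for Cpa3, chr14:56062311-56062560 for Mcpt4 and chr14:55944676-55944925 for Cma1. Capitals mark the letters GATAA, the core of the box that GATA factors read, or its reverse complement TTATC.
Cpa3: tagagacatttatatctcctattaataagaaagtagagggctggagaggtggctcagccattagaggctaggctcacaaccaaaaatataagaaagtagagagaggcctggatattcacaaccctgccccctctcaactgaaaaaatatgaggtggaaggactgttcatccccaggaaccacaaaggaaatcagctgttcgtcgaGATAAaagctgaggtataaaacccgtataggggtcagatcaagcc
Mcpt4: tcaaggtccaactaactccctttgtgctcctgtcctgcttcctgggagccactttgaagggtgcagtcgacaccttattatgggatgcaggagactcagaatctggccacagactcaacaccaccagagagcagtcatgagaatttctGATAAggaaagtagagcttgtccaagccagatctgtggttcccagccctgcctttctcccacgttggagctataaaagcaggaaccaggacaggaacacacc
Cma1: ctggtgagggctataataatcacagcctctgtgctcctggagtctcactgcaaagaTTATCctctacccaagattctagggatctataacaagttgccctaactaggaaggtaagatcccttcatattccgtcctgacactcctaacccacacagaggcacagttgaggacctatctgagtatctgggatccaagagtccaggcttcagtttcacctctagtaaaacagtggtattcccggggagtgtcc
A match stood at 45 bases before the start in Cpa3, 102 in Mcpt4 and 194 in Cma1. Of 29 members with an entry in the RefSeq table, 9 held GATAA on either strand, against 22.6% of all 32851 promoters of the same length. A member counted if any of its listed promoters held the letters, and Ptprc, Fcgr3 and Folr2 had several. The shares of all promoters are over single promoters, so they are not the same measure. The letters GGAAGT, a core read by the myeloid factor PU.1, were in 15 of the 29 members and in 19.7% of all promoters, and the 3 damage-associated genes held neither. GATAA was added to the search after the sequences had been seen, and a match is a description of letters, not a binding site.

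Cd209a (DC-SIGN, a lectin of monocyte-derived dendritic cells) measured 9.38, 1.56, 2.90 and 7.602 TPM in D+Q TA and 4.34, 3.41, 5.46 and 2.53 TPM in vehicle TA. In vehicle hearts it measured 1.99, 2.21, 2.12 and 2.36 TPM and in D+Q hearts 2.60, 1.15 and 1.40 TPM. D+Q TA replicates 1 and 4 were again the highest and D+Q TA replicate 2 fell within the heart range. The log2 difference of TA over heart was 0.69 (SE 0.40) under vehicle (adjusted p 0.177) and 1.19 (SE 0.43) under D+Q, where it was called with an adjusted p of 0.0356 (limma, Benjamini-Hochberg) though values overlapped. Siglech, of plasmacytoid cells, was at 0.07 under vehicle, and Flt3, the receptor that dendritic precursors need, stayed under 0.5 TPM in every library.

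The plot of TPM by mouse for 12 markers shows these patterns side by side.

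**Figure D4:**
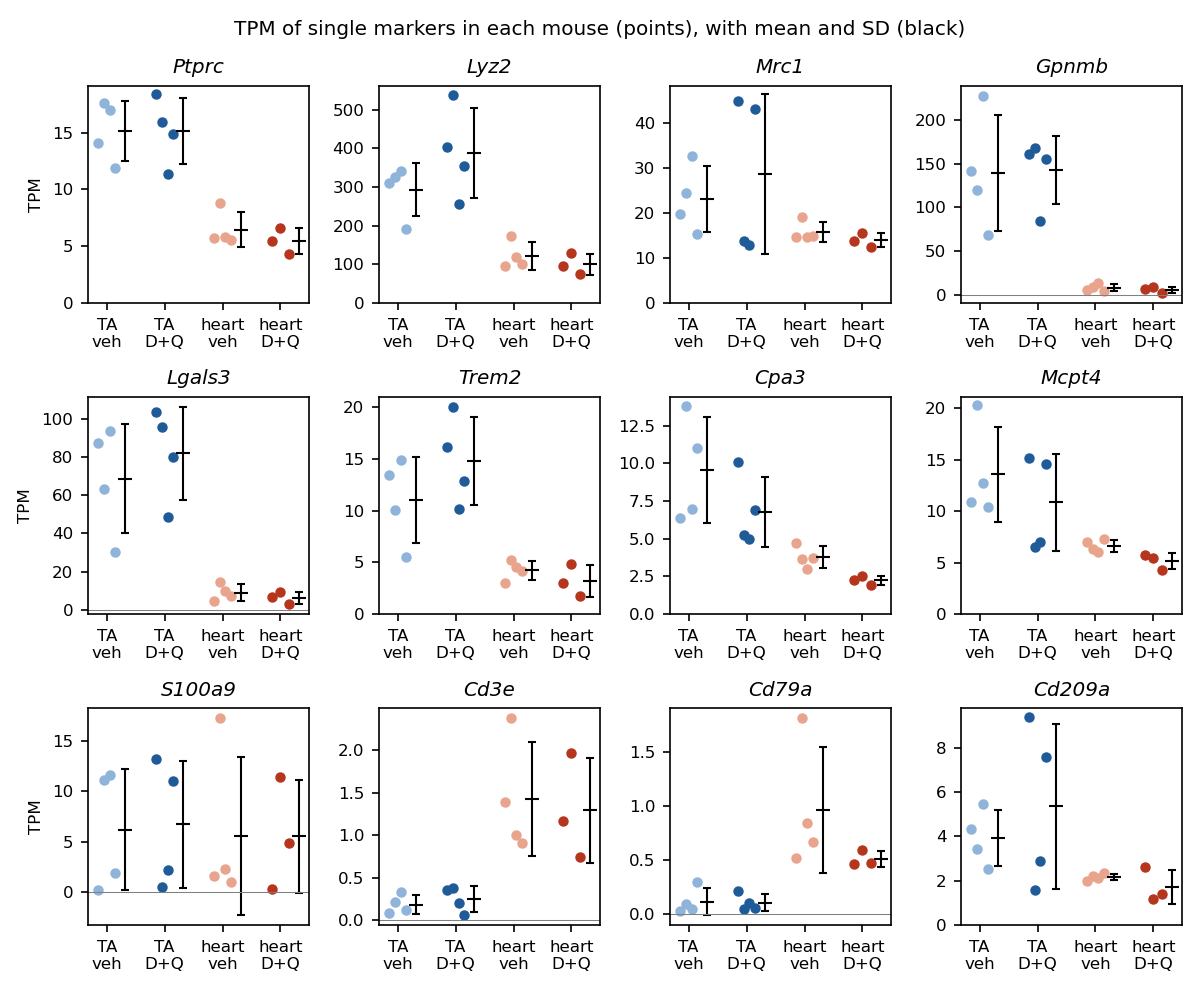
TPM of 12 markers (vertical axis, 1 panel a gene) in each mouse (points) of the 4 groups, with the mean and SD as bars (n = 4, and 3 for D+Q hearts). Ptprc, Lyz2, Gpnmb and Lgals3 separate TA from heart, S100a9 spreads as widely within groups as between them, and Cpa3 and Mcpt4 have all 3 D+Q hearts below all 4 vehicle hearts (as do 5.57% of all genes).

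The treatment comparison in TA asked whether D+Q altered the leukocyte signal of young dystrophic muscle. General macrophage markers had log2 fold changes from -0.37 (Aif1) to 0.30 (Lyz2, SE 0.23, 95% interval -0.20 to 0.81), with 5 of 10 above 0. Resident markers ran from -0.40 (Folr2) to 0.28 (Lyve1), and Mrc1 was at -0.20 (SE 0.22). The damage-associated genes were at 0.33 (Trem2), 0.12 (Lgals3) and -0.09 (Gpnmb), the last with a 95% interval of -0.67 to 0.48. The lowest fold changes of all 26 were those of 2 mast cell genes. Mcpt4 was at -0.52 (SE 0.26), unadjusted p 0.0717, and Cpa3 at -0.52 (SE 0.28), unadjusted p 0.0935, with adjusted p of 0.999 for both (limma, Benjamini-Hochberg). Of 6 further mast cell genes tested, 4 were above 0 and 2 below, with a median of 0.07. Cma1 was at -0.29 and Cd209a at -0.14.

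Mice of the TA groups differed among themselves across many members together. D+Q TA replicate 1 had the highest TA level for 11 of the 37 members and was among the 3 highest for all 18 macrophage genes. D+Q TA replicate 3 had the lowest TA level for 12 members and was among the 3 highest for 0 macrophage genes, and vehicle TA replicate 4 had the lowest level for 9, all of them macrophage genes. The TA fit included 1 surrogate variable, an estimate of variation shared across genes, on which D+Q replicates 1 and 3 lay at 0.70 and -0.42. Without the surrogate variable, 17 of the 26 members were above 0 and 9 below, against 11 and 15 with it, and 0 were called either way. With males only and no surrogate variable, 10 were above 0 and 16 below.

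The same comparison in heart gave values below 0 for most members. Gpnmb had a log2 fold change of -0.79 (SE 0.20) with a 95% interval of -1.27 to -0.32, an unadjusted p of 0.00548 and an adjusted p of 0.126 (limma, Benjamini-Hochberg). Lgals3 was at -0.66 (SE 0.20), with p of 0.0111 and 0.156 in the same limma fit before and after adjustment. Trem2 was at -0.54 (SE 0.20), with p of 0.0318 and 0.236. For all 3 the D+Q and vehicle hearts overlapped, and D+Q heart replicate 3 was the lowest of the 7 hearts. Cpa3 was at -0.62 (SE 0.17), with limma p of 0.00655 and 0.132, and Mcpt4, which missed the minimum fold, at -0.35 (SE 0.12).

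Among other heart members, Lyz2 was at -0.37 (SE 0.15) and Tyrobp at -0.34 (SE 0.14). The unadjusted limma p were 0.0386 and 0.0453, with adjusted p of 0.255 and 0.271 (Benjamini-Hochberg), and neither reached the minimum fold. Cma1 was at -0.49, Cd79a at -0.54, Aif1 at -0.46 and Mrc1 at -0.21. The 3 members above 0 were S100a8 (0.34), Cd163 (0.06) and Adgre1 (0.01). The plot of treatment fold changes shows the intervals of most of these members reaching past 0.

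**Figure D5:**
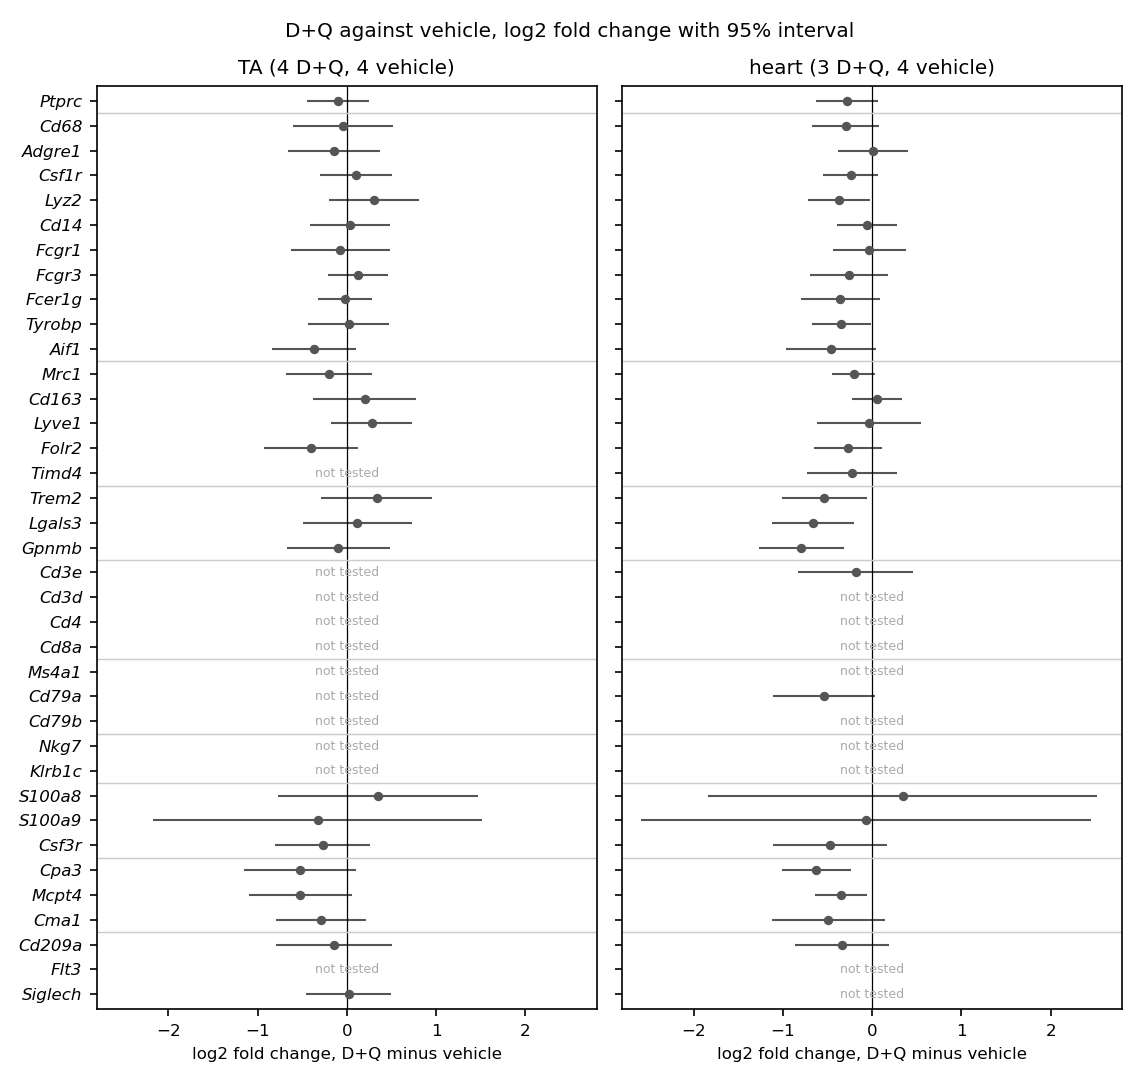
Log2 fold change of D+Q over vehicle with its 95% interval (horizontal axis) for each tested member (vertical axis, by class) in TA (26 members) and heart (28 members). Every member is drawn in grey because 0 were called. In heart 25 of 28 lie left of 0, with Gpnmb lowest at -0.79.

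The heart values rested on which libraries and covariates entered. Without D+Q heart replicate 3, the 4 members at unadjusted p became 4 others (Aif1, Cd79a, Csf3r and Lyve1), and Gpnmb was at -0.56 (p 0.0562), Lgals3 at -0.57 (p 0.0728), Trem2 at -0.31 (p 0.242), Cpa3 at -0.39 (p 0.0641) and Mcpt4 at -0.14 (p 0.251), all unadjusted p from limma. With sex read from Xist (under or over 1 TPM) in place of the label, 5 members were lower at unadjusted p, Lgals3 among them at -0.99 (p 0.0449) with Aif1, Cd79a, Csf3r and Lyz2. In that limma fit Gpnmb was at -1.14 (p 0.0611), Trem2 at -0.63 (p 0.0988) and Cpa3 at -0.48 (p 0.0251, under the minimum fold), all unadjusted. Vehicle heart replicate 2 had the highest heart level for 20 of the 37 members and D+Q heart replicate 3 the lowest for 15. Without vehicle heart replicate 2, Cpa3, Gpnmb and Lgals3 remained at unadjusted p, with log2 fold changes of -0.62, -0.99 and -0.56. Without labelled sex in the fit, 1 member was left at unadjusted p, Cpa3 at -0.64.

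Marker genes of other tissue also differed between the heart groups. Summed TPM of 5 atrial muscle genes (Myl7, Myl4, Sln, Nppa and Bmp10) was 864 to 4260 in vehicle hearts and 382 to 427 in D+Q hearts, and 3 of the 5 were called lower. Summed TPM of 5 red cell genes was 346 to 1231 with vehicle and 26.8 to 122 with D+Q, and that of 5 ventricular genes was 21148 to 23391 and 26500 to 28023. Of 6 fibroblast genes, 6 were below 0 (median -0.34), 0 were called and 3 did not overlap, with a summed TPM of 561 to 793 with vehicle and 449 to 529 with D+Q. Of 3 platelet genes, 3 were below 0 (median -1.10), 0 were called and 2 were lower at the unadjusted p, with a summed TPM of 36.8 to 78.1 with vehicle and 18.6 to 48.6 with D+Q. Of 4 skeletal muscle genes tested, 3 were above 0 and 1 below (median 0.73), and 0 were called. Values did not overlap for 2 of them, higher with D+Q, against 9.63% of all genes. The part of the fibroblast, platelet and skeletal muscle genes in the members' values was not tested. With an atrial score in place of sex, 24 of the 28 members were above 0 and 4 below, with a median of 0.65 beside 0.31 over all genes, and with a red cell score 19 were above and 9 below. Atrial gene levels of D+Q and vehicle hearts did not overlap, so atrial gene level and treatment cannot be told apart in these 7 hearts.

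Whether D+Q acted differently in TA and heart was tested as the difference of the treatment effects. Of 30 members, 0 were called, where 0.0448% of all genes were called higher and 0.0168% lower in TA. At unadjusted p, 0 members passed, against 1.73% higher and 2.59% lower. The difference was above 0 for 27 and below 0 for 3 members, where 39.6% and 60.4% of all genes were so. Unlike the treatment fits, this fit held neither the surrogate variable nor sex. Without the surrogate variable, 17 of the 26 members tested in TA were above 0 and 9 below. Tissue, age and length of treatment differed together here too, and atrial gene level cannot be told apart from treatment in the hearts. Trem2 had the largest, at 0.89 (SE 0.46) with a 95% interval of -0.09 to 1.86, followed by Lgals3 at 0.79, and the limma Benjamini-Hochberg adjusted p of all members lay between 0.908 and 0.997. All contrasts between tissues used the same libraries as the treatment contrasts, so their values are not independent of one another.

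Another 97 genes of the same cell types were read in the same way. In TA 56 were tested and 0 called, and 1 was lower at the unadjusted p, near the 1.72% of all genes, the macrophage lectin Mgl2 (-0.55, SE 0.22, p 0.0311, adjusted p 0.999, limma with Benjamini-Hochberg). In heart 57 were tested and 0 called, and 6 were lower at the unadjusted p: 4 of 26 further macrophage genes, 1 of 4 B cell and plasma cell genes and 1 of 4 dendritic cell genes, where 3.79% of all genes were lower. The macrophage genes included Ctsk, a protease that cuts collagen (-0.62, SE 0.12, adjusted p 0.0959), Cd9, a tetraspanin of membranes (-0.67, SE 0.14, adjusted p 0.103), and Cd84, a leukocyte adhesion receptor (-0.62, SE 0.19, adjusted p 0.167, all limma with Benjamini-Hochberg). Ighm, the heavy chain of immunoglobulin M, was at -0.81 (SE 0.14, adjusted p 0.0848), and the integrin Itgax at -0.53 (SE 0.16, adjusted p 0.171, both limma with Benjamini-Hochberg). Without D+Q heart replicate 3, 4 of 55 were lower and 1 higher at the unadjusted p, with Cd9 at -0.77 and Ighm at -0.85 among the lower ones. Ctsk was then at -0.49, Cd84 at -0.56 and Itgax at -0.41. With sex read from expression 8 of 57 were lower, Ctsk, Cd9, Cd84 and Ighm among them.

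Between tissues under vehicle, 22 of 64 tested genes of these further lists were called higher and 7 lower in TA, where 22.6% and 14.1% of all genes were called. The higher ones comprised 12 of 26 macrophage genes, 4 of 7 genes of all leukocytes, 3 of 5 dendritic cell genes, 2 of 6 mast cell genes and 1 of 4 B cell and plasma cell genes. The lower ones comprised 2 macrophage, 2 T cell, 2 B cell or plasma cell genes and 1 mast cell gene, and 0 of 7 neutrophil and 0 of 2 NK genes were called. None of 4 eosinophil genes passed the filter. Reads of close relatives, such as Lyz2 and Lyz1, the Fcgr genes, Mcpt4 and Cma1 with other chymases, Klrb1c and Cd209a, may be shared out by the quantification, which makes their levels less certain.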

How the data were processed

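Bulk RNA of 15 libraries, 1 mouse each, was analysed from gene-level TPM values deposited by the authors. Per the labels and the methods of the study, reads were trimmed with Trim Galore (version 0.6.10) and quantified with Salmon (version 1.10.3) against GRCm39. The annotation release was not given in the sources used here, and 56236 of the 56980 identifiers are in GENCODE M39, from which gene positions were taken. The reference is of the C57BL/6J strain. TPM values of each library sum to 1000000 and keep no sequencing depth, so no counting interval is given and count models were not used, although the study fitted counts.

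Differences were tested with limma (version 3.58.1, R 4.3.3) on log2(TPM + 0.5), with a filter of 0.5 TPM in at least 3 mice, a trended prior variance and Benjamini-Hochberg adjustment over all genes tested. A call needed an adjusted p below 0.05 and an absolute log2 fold change above 0.5. Fold changes on this scale understate those of low genes. The TA fit held 1 surrogate variable, computed here by iterative reweighting in 5 rounds, and the heart fit held labelled sex, after the study's design. Contrasts between tissues came from 1 fit of the 4 group means, which share a variance over all 15 libraries. The fits were run on simulated data with known changes and independent noise for each gene. Those data held no variation shared across genes, so they could not test the surrogate variable or the covariates. Within-group correlations of log2 values were 0.941 to 0.979. Replicate numbers did not pair the samples: deviations of same-numbered mice correlated at -0.28 to 0.03 in TA and -0.04 to 0.02 in heart.

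The members and lists were chosen with earlier results of these data known. Every mouse was given for the member with the highest mean TPM of each class, for members at unadjusted p below 0.05 with the minimum fold in a treatment comparison, and for members whose treatment groups did not overlap. Further leukocyte genes were named where they passed that unadjusted rule, at most 3 a list. Alternatives covered the pseudocount, the filter, scaling by median-of-ratios factors, the trend, the minimum fold, the replicate block, covariates and leaving out each mouse. Those restricted to libraries labelled male and to hearts without vehicle replicate 2 and without covariate, the repeats of the further heart genes, as well as the search for GATAA, were chosen with the data in view. Promoter sequences were from RefSeq (GRCm38.p6).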

Additional observations from a re-analysis of the deposited data

Results flagged for a closer look

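In groups of 4, the highest or lowest mouse was compared with the nearest of the others relative to the range of the group, by Dixon's ratio against its 95% critical value. Of 111 combinations of member and group, 15 passed, where chance passes about 5%. Vehicle heart replicate 2 stood above the other 3 vehicle hearts for 6 members of several classes: Ptprc at 8.79 TPM (others 5.52 to 5.80), Mrc1 at 19.2 TPM (others 14.6 to 14.9), Cd8a at 0.413 TPM (others 0 to 0.0502), Ms4a1 at 0.59 TPM (others 0.173 to 0.202), Cd79b at 1.42 TPM (others 0.407 to 0.451) and S100a8 at 12.6 TPM (others 0.884 to 1.37). That library also had the highest summed TPM of the 5 atrial genes, and the part of this in the leukocyte levels was not tested. Cma1 was low in vehicle heart replicate 3, at 4.41 TPM (others 5.61 to 5.81).

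In TA, D+Q replicate 3 was low for Tyrobp at 28.5 TPM (others 45.0 to 49.2) and for Gpnmb at 84.7 TPM (others 155 to 168). Vehicle TA replicate 4 was low for Lyz2 at 192 TPM (others 311 to 342), and vehicle TA replicate 2 was high for Csf1r at 45.4 TPM (others 28.7 to 30.3) and for Cd3d at 0.667 TPM (others 0 to 0.0688). Values at the edge of detection were Ms4a1 at 0.0375 TPM and Klrb1c at 0.0345 TPM in D+Q TA replicate 4, both listed at 0 in the other 3 mice, and Klrb1c at 0.289 TPM in vehicle TA replicate 4 (others 0 to 0.0168).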

How the results depend on the processing

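Called members numbered 0 for D+Q against vehicle in both tissues under every alternative run. In heart, the 4 members lower at unadjusted p became 7 with no minimum fold, 2 with the replicate block, 1 with no covariate, 5 with sex read from expression (Lgals3 alone of the 4), 1 with the atrial score (and 2 higher), 0 with the red cell score (and 2 higher) and 1 with no covariate and without vehicle heart replicate 2. With the atrial score in place of sex the heart fold changes of Trem2, Lgals3 and Gpnmb turned to 1.11, 2.49 and 2.03 (limma Benjamini-Hochberg adjusted p 0.847, 0.835 and 0.845). With only libraries labelled male, Cd163, Lyve1 and Folr2 lost their call between the vehicle groups, at log2 differences of -0.61, -0.37 and -0.55. Fewer genes were called lower over all genes in that smaller fit too, so the losses are no result about the members. With labelled sex in the fit, members called lower in D+Q TA than in D+Q heart fell from 4 to 2. Over all genes the calls lower fell from 2847 to 2372. For the difference of treatment effects, members higher at unadjusted p rose from 0 to 2 with median-of-ratios scaling, 2 with the replicate block and 1 with labelled sex. Leaving out 1 mouse at a time gave 0 to 3 members lower at unadjusted p in TA (3 without vehicle replicate 3), 3 to 7 in heart (7 without vehicle replicate 3), 2 to 4 called lower in D+Q TA than in D+Q heart (2 without D+Q heart replicate 2 or 3) and 0 to 3 higher for the difference (3 without D+Q TA replicate 3). Without D+Q heart replicate 2 or 3, the genes called lower in D+Q TA over all genes were 2533 and 2743, against 2847. The causes were not tested. The replicate block changed no other call, and since the numbers did not pair the mice, it shared only a number. Over members and fits there were 32 losses of a single member's call, 21 of them with a mouse left out. For the mean log2 level of a class, 13 differences between groups moved by more than the spread between mice. Because TPM keeps no depth, levels under 1 TPM of T, B, NK and dendritic cell genes have no stated precision.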

Other observations

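Several further leukocyte genes, chosen after their values were seen, stood far apart between the tissues. Ctsk was 44.0 to 79.3 TPM in D+Q TA and 36.2 to 83.9 TPM in vehicle TA, and 3.98 to 6.64 TPM in vehicle hearts and 2.19 to 4.35 TPM in D+Q hearts. Spp1 (osteopontin, a secreted matrix protein) was 23.4 to 186 and 9.36 to 67.6 TPM in D+Q and vehicle TA, and 0.678 to 6.56 and 2.65 to 7.55 TPM in D+Q and vehicle hearts. Itgax was at least 4.03 TPM in every TA library and at most 1.59 TPM in every heart. Vsig4, a complement receptor of resident macrophages, was 0.43 to 1.36 TPM in TA and 2.67 to 6.92 TPM in heart. Vsig4 was lower in TA, with a log2 difference under vehicle of -1.93 (SE 0.24) and a limma Benjamini-Hochberg adjusted p of 8.51e-06. Over all 26 further macrophage genes, 7 were below 0 and 2 were called lower under vehicle, against 19 above 0 and 12 called higher. The lowest was at -2.545.

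The immunoglobulin genes went opposite ways between tissues. Ighm was 19.4 to 68.2 TPM in TA and 3.89 to 11.2 TPM in heart, with a log2 difference under vehicle of 2.27 (SE 0.30) and an adjusted p of 1.4e-05 (limma, Benjamini-Hochberg). Igkc, the kappa light chain, was 0.191 to 3.89 TPM in TA and 3.63 to 41.3 TPM in heart, with a log2 difference of -2.36 (SE 0.61) and an adjusted p of 0.00504 (limma, Benjamini-Hochberg). Cd79a, which assembles with the heavy chain at the surface of B cells, was under 0.5 TPM in every TA library. Why the heavy chain gene was high in TA was not tested.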
